A study of Mus musculus with 20 samples.

Results

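The cytochrome P450 (Cyp) genes of the mouse, 97 of the 55486 genes listed in both count tables, were compared between oxaliplatin-treated and vehicle-treated animals in kidney and in bone marrow. The genes were chosen by name: 134 symbols read Cyp followed by a digit, 33 of these that end in -ps were left out as pseudogenes together with 4 other symbols, and the remaining 97 comprise 96 protein-coding genes and the antisense RNA gene Cyp4x1os. RNA from kidney and bone marrow was sequenced in 20 libraries, 5 for each tissue and treatment, which the labels call biological replicates. C57BL/6 mice aged 10 weeks were given either oxaliplatin, a platinum drug that damages DNA and is used against colorectal cancer, or its vehicle. Oxaliplatin was injected intraperitoneally at 10 mg/kg in 5% dextrose over 8 weeks, and the vehicle group received 5% dextrose over the same period. Tibial and femoral marrow was collected 6 days after dosing ended, whereas the collection of the kidneys is not described. The study states that male and female mice were used, but all 20 libraries held Y-linked transcripts and none held more than 2.88 CPM (counts scaled to a common library total) of Xist, the RNA of the inactive X chromosome. Whether a kidney and a marrow library came from the same mouse is not given.

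Cytochrome P450 enzymes are haem proteins that insert oxygen into fatty acids, sterols, steroid hormones, retinoids and drugs. Most sit in the endoplasmic reticulum and draw electrons from the reductase Por, while a few act in mitochondria with ferredoxin. In the kidney they are concentrated in the proximal tubule, where members of the Cyp2c, Cyp2j and Cyp4a subfamilies turn arachidonic acid into products that act on blood vessels and on salt transport. In bone marrow they are best known in stromal cells, in which Cyp26 enzymes break down retinoic acid and Cyp1b1 oxidises polycyclic hydrocarbons.

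Library totals ranged from 24393007 to 30925430 counts in kidney and from 30660153 to 41140527 in marrow, and values below are CPM after scaling by the trimmed mean of M-values (TMM), or RPKM, which divides CPM by the length of the exons in kilobases. Markers of the proximal tubule summed to between 13558 and 19223 CPM in every kidney library, and markers of neutrophils to between 7945 and 19174 CPM in every marrow library against at most 1.96 CPM in kidney. In marrow the 7 genes listed as proximal tubule markers summed to 587 to 951 CPM with vehicle and 67.3 to 169 CPM with oxaliplatin. Of these, 4 were tested there, and Aqp1 and Slc5a2 were called lower. Markers of podocytes and of the collecting duct reached at most 0.423 and 0.520 CPM in marrow, and those of the loop of Henle and distal tubule 10.8 CPM. The source of these transcripts in marrow was not tested. A gene was called higher or lower when the adjusted p of the quasi-likelihood test of edgeR, corrected over all genes tested in that tissue, was under 0.05 and the change exceeded 1.5-fold. Because the RNA came from whole tissue, fewer cells of a type and less RNA per cell cannot be told apart.

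The kidney expressed a broad set of P450 genes at very unequal levels. Per length, Cyp2e1, which oxidises ethanol and small solvents, stood first in vehicle-treated kidney at 712 ± 48.8 RPKM (SD, n = 5). It was followed by the fatty acid epoxygenase Cyp2j5 at 390 ± 11.7 RPKM and by the steroid hydroxylase Cyp2a4 at 357 ± 45.9 RPKM. Cyp2a5, which metabolises coumarin and nicotine, came next at 197 ± 44.7 RPKM. The lower part of the leading 10 held Cyp2d9, Cyp4a10, Cyp2d26, Cyp4a31, Cyp2j11 and Cyp7b1, from 125 down to 77.6 RPKM, and Cyp4a10, Cyp2d26, Cyp4a31, Cyp2j11 and Cyp7b1 lay within the spread between libraries of their neighbours in this order. Cyp2e1 alone made up 28.3% ± 0.978 of the summed RPKM of all 97 genes with vehicle and 15.3% ± 5.18 with oxaliplatin. Summed over the 97 genes, the level was 5667 ± 375 CPM with vehicle and 4312 ± 156 CPM with oxaliplatin, and the lowest vehicle library (5172 CPM) lay above the highest oxaliplatin library (4522 CPM).

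**Figure D1:**
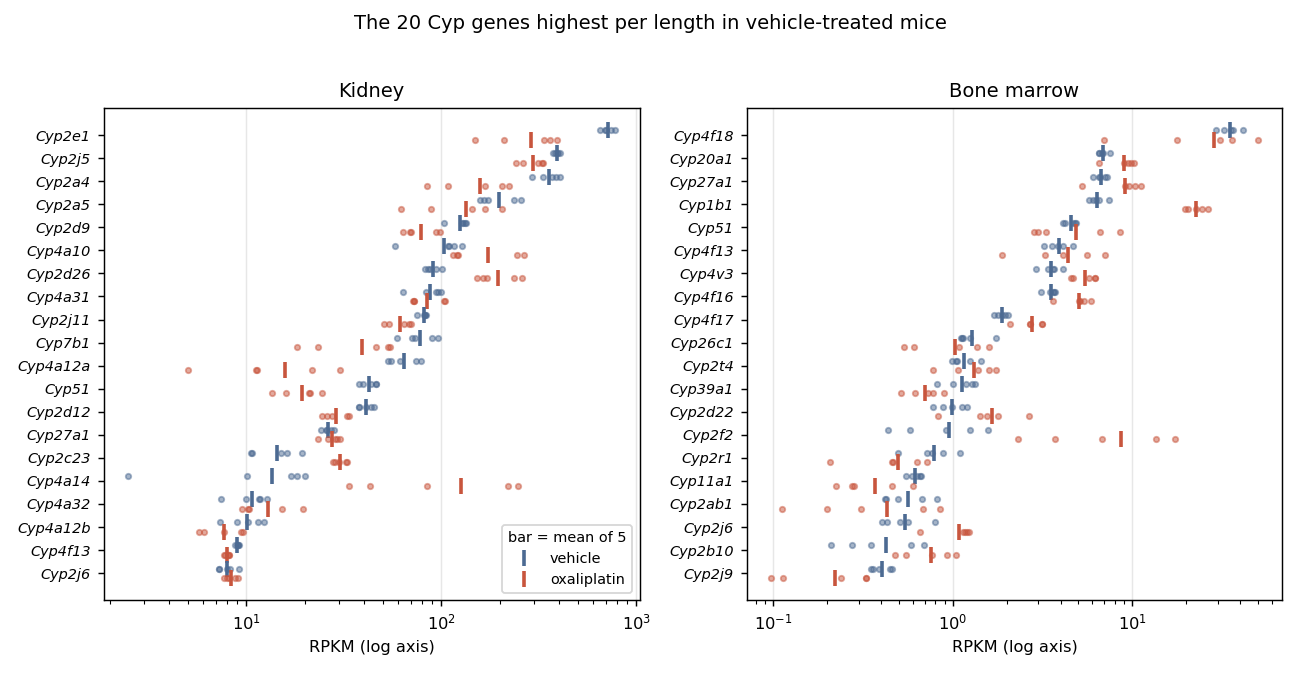
RPKM on a log axis of the 20 Cyp genes with the highest mean in vehicle-treated mice, in kidney (left) and bone marrow (right). Points are single libraries and vertical bars the means of 5. In kidney Cyp2e1 fell from 712 to 290 RPKM while Cyp4a14 went from 13.5 to 126 RPKM, and in marrow Cyp1b1 went from 6.40 to 22.8 RPKM.

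In kidney, 55 of the 97 genes had enough counts to be tested, and 15 of them changed, 9 higher and 6 lower. This is 27.3% of those tested, against 11.5% of all 19293 genes tested. For higher genes the share was 16.4% against 7.68% of all genes, and for lower genes it was 10.9% against 3.81%. The genes that rose were Cyp1a1, Cyp1b1, Cyp2c23, Cyp2d22, Cyp2d26, Cyp2s1, Cyp2t4, Cyp4a14 and Cyp17a1. Those that fell were Cyp2e1, Cyp2a4, Cyp2b10, Cyp2d9, Cyp4a12a and Cyp51. Another 5 passed the adjusted p but stayed within 1.5-fold, and all 5 were lower with oxaliplatin. The 2 treatment groups did not overlap in 19 genes, which is 34.5% of those tested against 20.7% of all genes. The median log2 fold change was 0.066 over the tested Cyp genes and 0.025 over all genes. Scaling by library size alone moved the latter to 0.158 and the share of called genes of all kinds that were higher from 66.8% to 82.7%, while among the Cyp genes it left 9 higher and 5 lower.

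**Figure D2:**
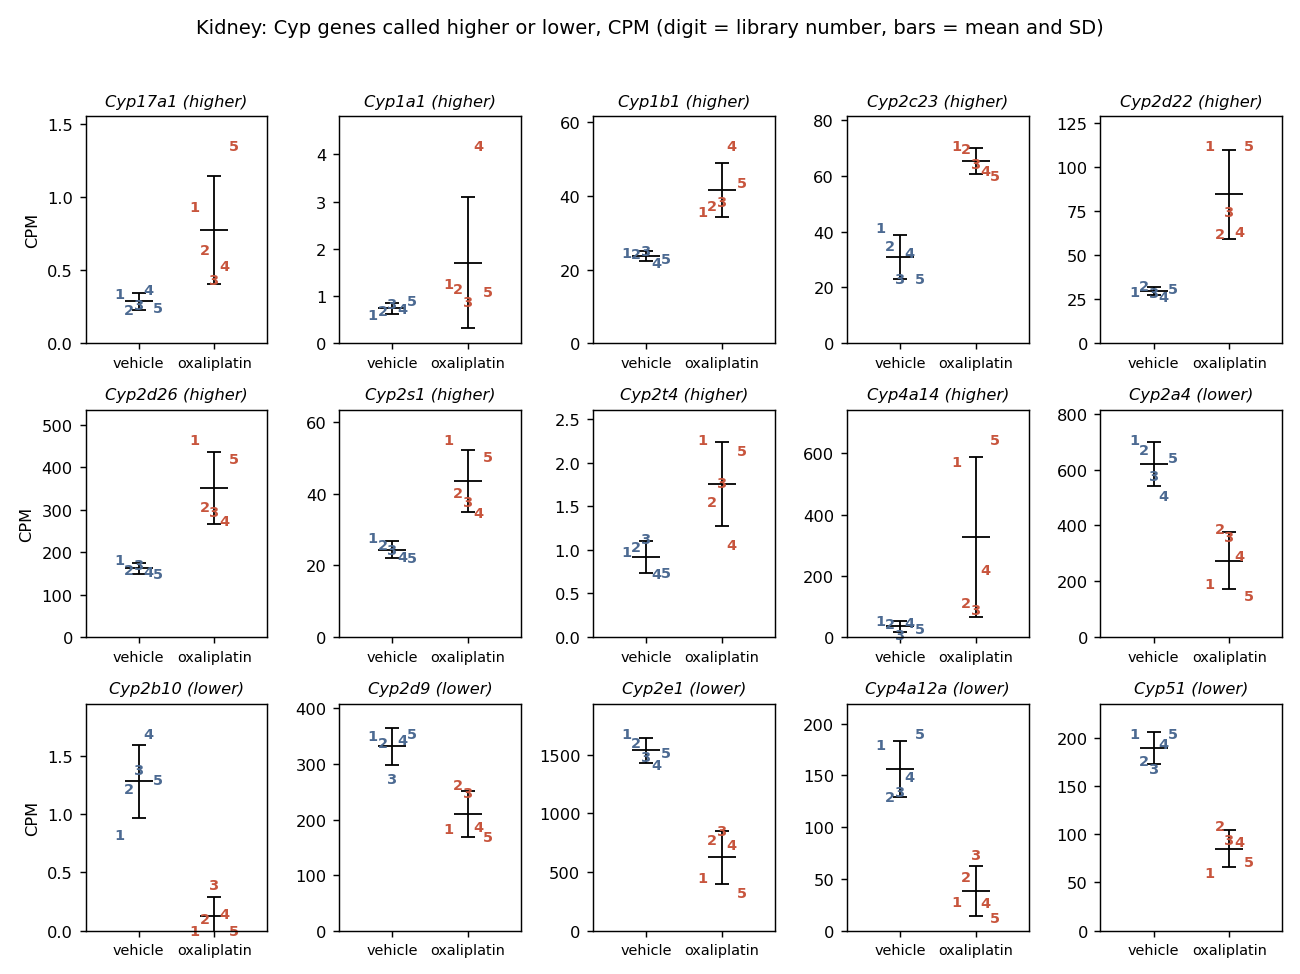
CPM of the 15 Cyp genes called in kidney, each with its own axis from 0. Digits mark library numbers within a group, and black bars are the mean and SD of 5 libraries. The library farthest from vehicle was oxaliplatin 1 in 7 genes, 5 in 6 and 4 in 2, with Cyp2b10, at 0 CPM in both 1 and 5, counted under 1.

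Among the enzymes of drugs and small solvents, the abundant Cyp2e1 and Cyp2a4 both fell by more than 2-fold. Cyp2e1 read 1679, 1601, 1481, 1409 and 1514 CPM in the vehicle libraries and 453, 775, 850, 728 and 321 CPM in the oxaliplatin libraries. No library of either group reached the other's range, and oxaliplatin libraries 1 and 5 were lowest. The log2 fold change was -1.30 ± 0.25 (SE, adjusted p = 0.00421). Cyp2a4 showed 706, 669, 578, 505 and 642 CPM with vehicle and 189, 386, 357, 291 and 147 CPM with oxaliplatin. Again every oxaliplatin library lay below every vehicle library and libraries 1 and 5 were lowest, with a log2 fold change of -1.18 ± 0.27 (SE, adjusted p = 0.0101). Its close relative Cyp2a5 had 488, 529, 342, 328 and 359 CPM with vehicle and 183, 426, 347, 298 and 129 CPM with oxaliplatin. There the groups overlapped, since oxaliplatin libraries 2 and 3 reached the vehicle range, and the change was not called (log2 fold change -0.56 ± 0.33, adjusted p = 0.238). The pair share 11.2% of the 100-base stretches of the Cyp2a4 transcript, and reads from such stretches match both genes. The study states that only reads with a unique, unambiguous alignment were counted, so such reads may be missing from both counts.

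The region before the start of Cyp2e1 is shown because this gene was the most abundant of the family and the one whose change turned its direction between the tissues. It is at chr7:140763569-140763818 of GRCm38.p6, plus strand, from RefSeq, and it is written 5′ to 3′ over the 250 bases before the start. Capitals mark the TATA motif, TATAA on either strand, with overlapping matches joined.
Cyp2e1: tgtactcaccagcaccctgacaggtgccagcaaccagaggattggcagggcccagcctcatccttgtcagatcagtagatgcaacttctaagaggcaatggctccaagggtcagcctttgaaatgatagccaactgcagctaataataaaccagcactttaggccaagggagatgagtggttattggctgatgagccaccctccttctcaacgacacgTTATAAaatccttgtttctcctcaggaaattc
The match begins 32 bases before the start. TATAA occurred in 22.8% of the 32851 windows of this length in the table, and in 40 of the 84 windows that belong to Cyp genes.

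The Cyp2d genes of chromosome 15 changed in opposite directions within a single cluster. All 8 members between chr15:82370527 and 82794294 were tested, and 2 rose, 1 fell and 5 were not called. Cyp2d22 and Cyp2d26, which lie at the 2 ends of the cluster, were the ones that rose. Cyp2d22, a drug-metabolising form, had 29.1, 32.5, 28.8, 26.5 and 30.7 CPM with vehicle and 112, 62.2, 74.7, 63.1 and 112 CPM with oxaliplatin. The groups were far apart and oxaliplatin libraries 1 and 5 were highest (log2 fold change 1.52 ± 0.19, adjusted p = 0.000235). Cyp2d26, at 90.1 RPKM in vehicle kidney against 7.55 RPKM for Cyp2d22, had 181, 157, 169, 152 and 149 CPM with vehicle and 464, 306, 294, 273 and 420 CPM with oxaliplatin. Its groups did not overlap either, with a log2 fold change of 1.12 ± 0.14 (adjusted p = 9.25e-05). Cyp2d9, a steroid hydroxylase known from male mouse liver, went the other way, with 351, 337, 274, 342 and 355 CPM under vehicle and 184, 261, 249, 187 and 170 CPM under oxaliplatin. All its oxaliplatin libraries were below all vehicle libraries, and the log2 fold change was -0.66 ± 0.12 (adjusted p = 0.000932). Without oxaliplatin library 5 this change shrank to -0.58, just inside 1.5-fold, with the adjusted p still at 0.00165. Between Cyp2d9 and Cyp2d26, Cyp2d12 had 160 ± 13.0 CPM with vehicle and 112 ± 15.8 CPM with oxaliplatin and passed the adjusted p but not the fold threshold (log2 fold change -0.51 ± 0.089, adjusted p = 0.000430). Cyp2d10, at 3.51 ± 0.706 CPM with vehicle and 2.41 ± 0.470 CPM with oxaliplatin, did likewise (log2 fold change -0.54, adjusted p = 0.0367). Of the stretches of 100 bases in the Cyp2d9 transcript, 9.86% occur unchanged in another Cyp gene.

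The regions before the start of Cyp2d9 and Cyp2d26 are shown as genes of the same cluster that moved in opposite directions. They are not adjacent, as Cyp2d12, Cyp2d34 and Cyp2d40 lie between them. They are at chr15:82452127-82452376, plus strand, and chr15:82794246-82794495, minus strand, in GRCm38.p6 (RefSeq), written as above with TATAA matches on either strand in capitals.
Cyp2d9: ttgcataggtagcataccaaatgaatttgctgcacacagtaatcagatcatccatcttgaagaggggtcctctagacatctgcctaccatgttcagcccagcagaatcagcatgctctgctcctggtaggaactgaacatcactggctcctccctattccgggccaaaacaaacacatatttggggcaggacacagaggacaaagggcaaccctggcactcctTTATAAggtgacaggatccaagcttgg
Cyp2d26: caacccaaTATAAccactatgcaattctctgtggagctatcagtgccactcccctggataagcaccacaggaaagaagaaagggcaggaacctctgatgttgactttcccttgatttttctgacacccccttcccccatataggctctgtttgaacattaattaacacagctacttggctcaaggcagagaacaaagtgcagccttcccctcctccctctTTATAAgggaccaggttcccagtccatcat
Both hold TATAA close to the start, at 27 bases before it in Cyp2d9 and 30 bases in Cyp2d26, and Cyp2d26 holds it again at 242 bases. Aligned end to end, the 2 regions were identical in 51.1% of columns, while the other pairs among the 6 regions printed here were identical in 43.4% to 50.4%.

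A second cluster with opposite changes was that of the Cyp4a genes on chromosome 4, whose enzymes hydroxylate the end of fatty acids, arachidonic acid among them. Cyp4a14 rose most of all Cyp genes in kidney. Its libraries had 51.8, 44.0, 6.44, 47.3 and 26.2 CPM with vehicle and 571, 112, 87.5, 219 and 644 CPM with oxaliplatin. Every oxaliplatin library exceeded every vehicle library, but the spread was wide and libraries 1 and 5 were far above the others. The log2 fold change was 3.22 ± 0.78 (adjusted p = 0.0153). Cyp4a12a, a form known as male-predominant in mouse kidney, had 179, 129, 134, 149 and 190 CPM with vehicle and 27.3, 52.3, 73.2, 27.1 and 12.2 CPM with oxaliplatin. It fell in all 5 libraries below the vehicle range, with a log2 fold change of -2.03 ± 0.45 (adjusted p = 0.0100, or 0.0539 with the replicate number as a block). Its near copy Cyp4a12b, which shares 35.8% of the 100-base stretches of the Cyp4a12a transcript, had 24.1 ± 4.76 CPM with vehicle and 18.4 ± 4.32 CPM with oxaliplatin and was not called (log2 fold change -0.39 ± 0.17, adjusted p = 0.110). Reads from the shared stretches may be missing from both counts. Cyp4a10 had 230, 244, 122, 268 and 229 CPM with vehicle and 516, 254, 242, 256 and 562 CPM with oxaliplatin. Only oxaliplatin libraries 1 and 5 lay above the vehicle range, and the change was not called (log2 fold change 0.75 ± 0.33, adjusted p = 0.127). Cyp4a31 at 219 ± 36.1 and 213 ± 42.8 CPM and Cyp4a32 at 16.5 ± 3.25 and 19.9 ± 6.65 CPM, with vehicle and oxaliplatin, were not called.

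**Figure D3:**
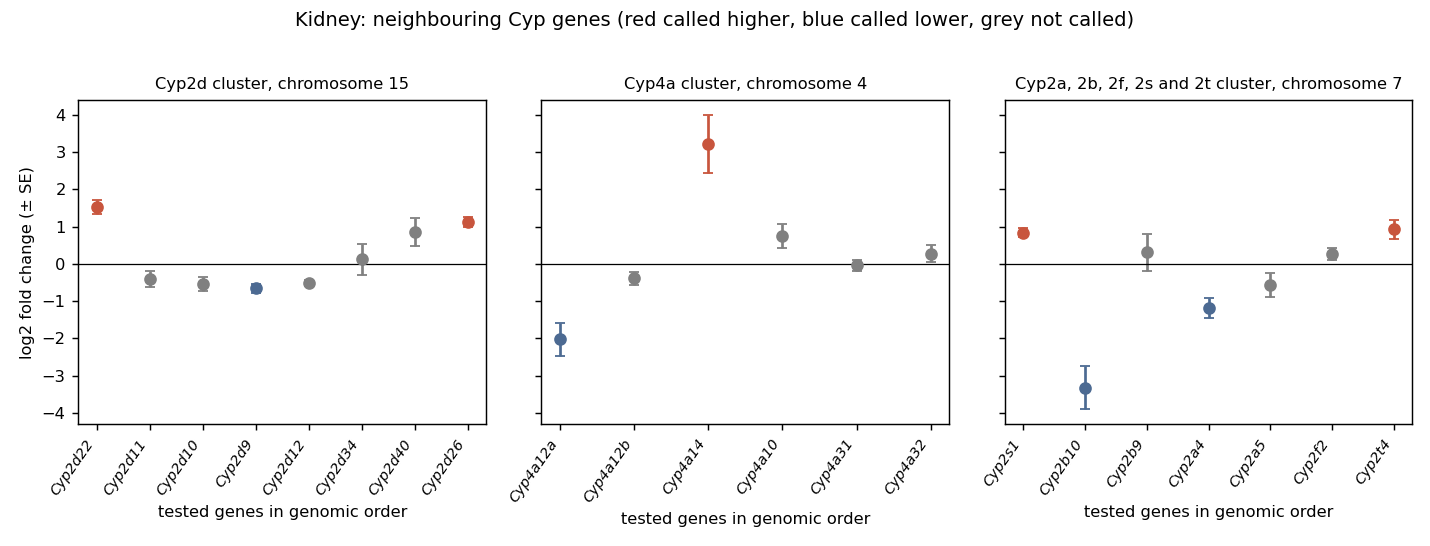
Log2 fold change in kidney (oxaliplatin against vehicle, bars ± SE) of the tested Cyp genes in 3 clusters, in their order along the chromosome. Red points were called higher, blue points lower, and grey points not called. In the Cyp2d cluster the end genes Cyp2d22 (1.52) and Cyp2d26 (1.12) lay above 0 and Cyp2d9 (-0.66) below it, and in the Cyp4a cluster Cyp4a12a (-2.03) and Cyp4a14 (3.22) lay on opposite sides.

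The remaining drug-metabolising genes of the Cyp2 family, several of them from a cluster on chromosome 7 that also holds Cyp2a4 and Cyp2a5, were scarcer. Cyp2b10, a target of the receptor CAR (Nr1i3) in liver, had 0.821, 1.22, 1.38, 1.69 and 1.30 CPM with vehicle and 0, 0.101, 0.395, 0.140 and 0 CPM with oxaliplatin. It was undetected in oxaliplatin libraries 1 and 5, where 3 counts, the most that a count of 0 allows, correspond to 0.112 and 0.0970 CPM. The log2 fold change was -3.32 ± 0.58 (adjusted p = 0.000522), and it reached -4.34 without oxaliplatin library 3. Cyp2b10 had enough counts for a test through its vehicle libraries, as the oxaliplatin libraries held at most 11 counts. Cyp2s1, an oxidase of epithelia, had 27.5, 25.7, 24.3, 22.4 and 22.0 CPM with vehicle and 55.1, 40.2, 37.8, 34.8 and 50.4 CPM with oxaliplatin. All 5 oxaliplatin libraries lay above the vehicle range (log2 fold change 0.84 ± 0.12, adjusted p = 0.000104). Cyp2t4 had 0.970, 1.03, 1.12, 0.725 and 0.729 CPM with vehicle and 2.26, 1.55, 1.76, 1.05 and 2.13 CPM with oxaliplatin. Only oxaliplatin library 4 fell back into the vehicle range, and the log2 fold change was 0.93 ± 0.26 (adjusted p = 0.0107).

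The arachidonic acid epoxygenases did not move together. Cyp2c23, which RefSeq also lists as Cyp2c44 and which makes vasodilating epoxides in the kidney, had 41.4, 34.9, 22.9, 32.3 and 23.0 CPM with vehicle and 70.7, 69.8, 64.2, 61.9 and 60.0 CPM with oxaliplatin. The oxaliplatin libraries lay close together and well above the vehicle range, and the gene rose with a log2 fold change of 1.08 ± 0.15 (adjusted p = 0.000276). In the Cyp2j group with Cyp2u1, all 8 genes were tested and none was called. Cyp2j5, the second most abundant P450 of the kidney, had 917, 934, 896, 880 and 947 CPM with vehicle and 612, 774, 735, 781 and 565 CPM with oxaliplatin. The groups did not overlap and the adjusted p was 0.00271, but the log2 fold change of -0.40 ± 0.089 stayed within the fold threshold. Cyp2j11 had 156 ± 6.55 CPM with vehicle and 118 ± 16.5 CPM with oxaliplatin (log2 fold change -0.40 ± 0.085, adjusted p = 0.00182). Cyp2j6 at 28.8 and 30.0 CPM, Cyp2j9 at 13.8 and 14.6 CPM and Cyp2u1 at 20.3 and 22.3 CPM, with vehicle and oxaliplatin, had adjusted p of 0.276 or more.

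The Cyp1 genes, the classical targets of the aryl hydrocarbon receptor (Ahr), were both called higher where tested. Cyp1b1 had 24.5, 24.3, 24.9, 21.7 and 23.0 CPM with vehicle and 35.6, 37.4, 38.3, 53.6 and 43.5 CPM with oxaliplatin, with no overlap. Its log2 fold change was 0.81 ± 0.099 (adjusted p = 2.01e-05). Cyp1a1 was scarce, at 0.597, 0.686, 0.821, 0.725 and 0.891 CPM with vehicle and 1.26, 1.14, 0.863, 4.18 and 1.08 CPM with oxaliplatin. A single library, oxaliplatin 4, stood far above the rest, and oxaliplatin library 3 lay within the vehicle range. The log2 fold change of 1.19 ± 0.40 (adjusted p = 0.0349) became 0.56 (adjusted p = 0.144) without that library, and the call was also lost without any vehicle library and with the replicate number as a block. The same library held 7.30 CPM of Aldh3a1, another target of the receptor, against 0.121 to 0.891 CPM in the other 9 libraries, and 72.9 CPM of the urothelial gene Upk1a against 4.25 to 7.13 CPM. Upk1b, Upk2, Upk3a, Krt5 and Krt15, which like Upk1a were chosen after the values were seen, were also highest there, and the part of urothelium in the value of Cyp1a1 was not tested. Cyp4f15 (5.19 CPM against 0.503 to 1.73 in the other libraries) and Cyp4f39 (2.18 CPM against 0.0810 to 0.518) were highest in that library too and were not called. Cyp1a2 had too few counts to be tested.

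The regions before the start of Cyp1a1 and Cyp1b1 are shown for GCGTG, the core of the sequence bound by Ahr with Arnt, which is in capitals on either strand together with TATAA. They are at chr9:57697363-57697612, plus strand, and chr17:79715062-79715311, minus strand, of GRCm38.p6 (RefSeq).
Cyp1a1: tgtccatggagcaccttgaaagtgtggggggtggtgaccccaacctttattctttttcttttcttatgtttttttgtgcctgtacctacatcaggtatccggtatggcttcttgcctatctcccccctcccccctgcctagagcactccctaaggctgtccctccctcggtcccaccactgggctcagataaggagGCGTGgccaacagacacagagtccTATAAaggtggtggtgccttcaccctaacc
Cyp1b1: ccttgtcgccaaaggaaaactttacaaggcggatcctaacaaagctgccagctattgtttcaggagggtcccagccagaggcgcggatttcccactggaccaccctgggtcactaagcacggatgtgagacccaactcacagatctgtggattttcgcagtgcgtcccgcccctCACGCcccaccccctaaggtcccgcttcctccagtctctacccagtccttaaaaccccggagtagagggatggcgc
Each holds GCGTG at a single place, 54 bases before the start of Cyp1a1 and, on the other strand, 76 bases before that of Cyp1b1. The motif occurred in 28.2% of all windows of this length and in 15 of the 84 windows of Cyp genes. TATAA lies 30 bases before the start of Cyp1a1, and these letters are not in the window of Cyp1b1.

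Of the P450s that act on sterols, Cyp51, the lanosterol demethylase of cholesterol synthesis, fell. It had 204, 176, 167, 193 and 204 CPM with vehicle and 60.1, 109, 94.1, 92.4 and 70.7 CPM with oxaliplatin. No oxaliplatin library came near the vehicle range, and the log2 fold change was -1.15 ± 0.14 (adjusted p = 9.80e-05). Cyp7b1, which hydroxylates oxysterols and steroids, had 153, 128, 193, 159 and 208 CPM with vehicle and 50.5, 116, 119, 99.6 and 39.5 CPM with oxaliplatin. The groups did not overlap and libraries 1 and 5 were again lowest, but the log2 fold change of -0.99 ± 0.33 missed the threshold (adjusted p = 0.0562). DESeq2 gave -0.99 with an adjusted p of 0.0129. Cyp27a1, the mitochondrial sterol hydroxylase, was at 57.0 ± 3.29 and 59.6 ± 5.92 CPM and Cyp39a1, an oxysterol hydroxylase, at 7.26 ± 0.841 and 6.73 ± 1.04 CPM, with vehicle and oxaliplatin, and neither was called.

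Steroid hormone synthesis was represented by a single tested gene. Cyp17a1, the 17-hydroxylase of androgen synthesis, had 0.336, 0.229, 0.259, 0.362 and 0.243 CPM with vehicle and 0.933, 0.640, 0.431, 0.526 and 1.35 CPM with oxaliplatin. These low values did not overlap (log2 fold change 1.43 ± 0.39, adjusted p = 0.00968). With 6 to 9 counts per vehicle library, the gene had enough counts for a test only through its oxaliplatin libraries. Of the adrenal cortex markers, Star was at 2.75 to 4.75 CPM with vehicle and 3.80 to 6.66 CPM with oxaliplatin and Akr1b7 was higher with oxaliplatin (0.871 against 1.60 CPM), while Cyp11b1, Cyp11b2 and Cyp21a1 had too few counts to be tested. The part of adrenal tissue in Cyp17a1 was not tested.

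None of the 3 genes of retinoic acid breakdown was called. Cyp26b1 had 2.50, 3.89, 4.28, 2.94 and 15.8 CPM with vehicle and 14.6, 9.86, 9.28, 6.49 and 48.6 CPM with oxaliplatin. Library 5 stood apart in both groups. The log2 fold change of 1.61 ± 0.76 had an adjusted p of 0.150, which went to 0.0480 without vehicle library 5 and to 0.396 without oxaliplatin library 5. With the replicate number as a block it was 1.55 with an adjusted p of 0.000239, although the numbers were not found to pair the libraries. Cyp26a1 and Cyp26c1 were at or below 1.92 CPM in every library.

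In the Cyp4f, Cyp4v and Cyp4x group 8 of 11 genes were tested and none was called. Cyp4f13, an omega-hydroxylase of fatty acids and eicosanoids, had 38.9, 40.8, 39.7, 40.2 and 40.1 CPM with vehicle and 34.5, 35.7, 36.2, 36.1 and 33.9 CPM with oxaliplatin. The values were so even that the groups did not overlap although the log2 fold change was only -0.18 ± 0.060 (adjusted p = 0.0311). Cyp20a1, an orphan P450 of unknown substrate, had 14.3 ± 1.39 CPM with vehicle and 16.5 ± 1.25 CPM with oxaliplatin (adjusted p = 0.100). The 42 genes that were not tested included all Cyp3a genes but Cyp3a13, most Cyp2c genes and the bile acid enzyme Cyp7a1. Their highest count in any library was 20, and 6 of them had no count in any kidney library.

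Among the called Cyp genes, the size of the response differed between oxaliplatin-treated kidneys. Of the 15 called genes, the library farthest from vehicle was oxaliplatin 1 in 7, oxaliplatin 5 in 6 and oxaliplatin 4 in 2. Cyp2b10, at 0 CPM in both oxaliplatin 1 and 5, was counted under 1. The same tally over all called genes was not made. Oxaliplatin libraries 1 and 5 had the lowest Hbb-bs, a red cell transcript, at 11.1 and 10.4 CPM against 63.0 to 199 CPM in the other 8. They also had the lowest Slc22a6, the tubular organic anion transporter, at 546 and 448 CPM against 713 to 1641 CPM. Of the 4 erythroid markers, which include Hbb-bs, 3 were tested in kidney, and only Slc4a1 was called, higher. The 4 summed to 135 to 188 CPM with vehicle and 68.4 to 322 CPM with oxaliplatin. Slc22a6 was the single proximal tubule marker of 7 that was called, and it was lower. Lrp2 had 4565 CPM with oxaliplatin and 4699 CPM with vehicle and was not called, and Slc34a1, at 7011 and 8524 CPM, passed the adjusted p (0.0358) within 1.5-fold. The summed level of the 7 markers ranged from 16549 to 19223 CPM with vehicle and from 13558 to 16915 CPM with oxaliplatin. Of 4 adipocyte markers 3 rose, with sums of 1.73 to 14.1 CPM with vehicle and 22.0 to 106 CPM with oxaliplatin, and both podocyte markers rose, from sums of 50.3 to 58.8 CPM to 92.7 to 115 CPM. Of 5 macrophage markers 3 fell and 1 rose, with sums of 28.8 to 32.6 CPM and 14.6 to 25.8 CPM, and of 4 endothelial markers 2 rose, with sums of 186 to 199 CPM and 225 to 323 CPM. The part of these markers in the change of the Cyp genes was not tested. Oxaliplatin library 2 had the most Alb, at 22.9 CPM against 6.50 to 12.0 CPM elsewhere, and the summed hepatocyte markers ranged from 133 to 198 CPM with vehicle and from 51.0 to 97.6 CPM with oxaliplatin, with Ttr lower.

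Genes that work with the P450s or that are regulated with them were counted from lists. Of 7 electron donors and redox partners in kidney, 1 was lower, Cyb5a, the cytochrome b5 of the endoplasmic reticulum (616 against 338 CPM, log2 fold change -0.87, adjusted p = 0.000336). The reductase Por had 618, 575, 594, 554 and 630 CPM with vehicle and 422, 467, 507, 439 and 443 CPM with oxaliplatin, which did not overlap but stayed within the fold threshold (log2 fold change -0.38, adjusted p = 0.000607). The epoxide hydrolases went in opposite directions. Ephx1, the microsomal form, rose from 48.4 to 217 CPM (log2 fold change 2.17, adjusted p = 2.26e-10), and Ephx2, the soluble form that clears epoxides of arachidonic acid, fell from 450 to 211 CPM (log2 fold change -1.09, adjusted p = 7.57e-06). Of 8 targets of SREBP2 outside the family, 3 fell (Hmgcs1, Idi1 and Sc5d) and 5 were not called. Of 9 PPAR alpha targets, 1 fell and none rose. None of the 9 tested receptors that control Cyp genes was called, nor any of 3 further Ahr targets or 4 genes of haem supply and breakdown. Of the 2 P450s with other symbols, the prostacyclin synthase Ptgis rose, from 7.55 to 13.2 CPM.

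Bone marrow expressed fewer P450 genes and at lower levels. Per length, Cyp4f18, a hydroxylase of leukotrienes in neutrophils, led with 34.9 RPKM with vehicle, or 41.4% ± 3.65 of the summed RPKM of the family. Cyp20a1, Cyp27a1, Cyp1b1, Cyp51, Cyp4f13, Cyp4v3 and Cyp4f16 followed between 6.86 and 3.52 RPKM, the first 3 of them within their spread between libraries, and then Cyp4f17 at 1.87 and Cyp26c1 at 1.28 RPKM. The summed level of the 97 genes was 233 ± 7.19 CPM with vehicle and 412 ± 57.2 CPM with oxaliplatin. The groups did not overlap, as the highest vehicle library had 241 CPM and the lowest oxaliplatin library, number 3, had 325 CPM.

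In marrow 31 of the 97 genes were tested, and 11 rose and 2 fell with oxaliplatin. Together this is 41.9% of those tested, against 23.3% of all 22363 genes tested. Higher genes made up 35.5% of the tested Cyp genes against 11.6% of all genes, whereas lower genes made up 6.45% against 11.8%. The genes that rose were Cyp1b1, Cyp26b1, Cyp2d22, Cyp2e1, Cyp2f2, Cyp2j6, Cyp2s1, Cyp2u1, Cyp4f37, Cyp4v3 and Cyp4x1os, and those that fell were Cyp11a1 and Cyp39a1. Another 3 passed the adjusted p within 1.5-fold, all 3 higher. Groups were apart in 8 genes, 25.8% of those tested against 24.9% of all genes. The median log2 fold change was 0.56 over the tested Cyp genes and -0.038 over all genes. Scaling by library size alone moved the latter to 0.108 and the share of called genes of all kinds that were higher from 49.6% to 63.4%, and it gave 16 Cyp genes higher and 0 lower.

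**Figure D4:**
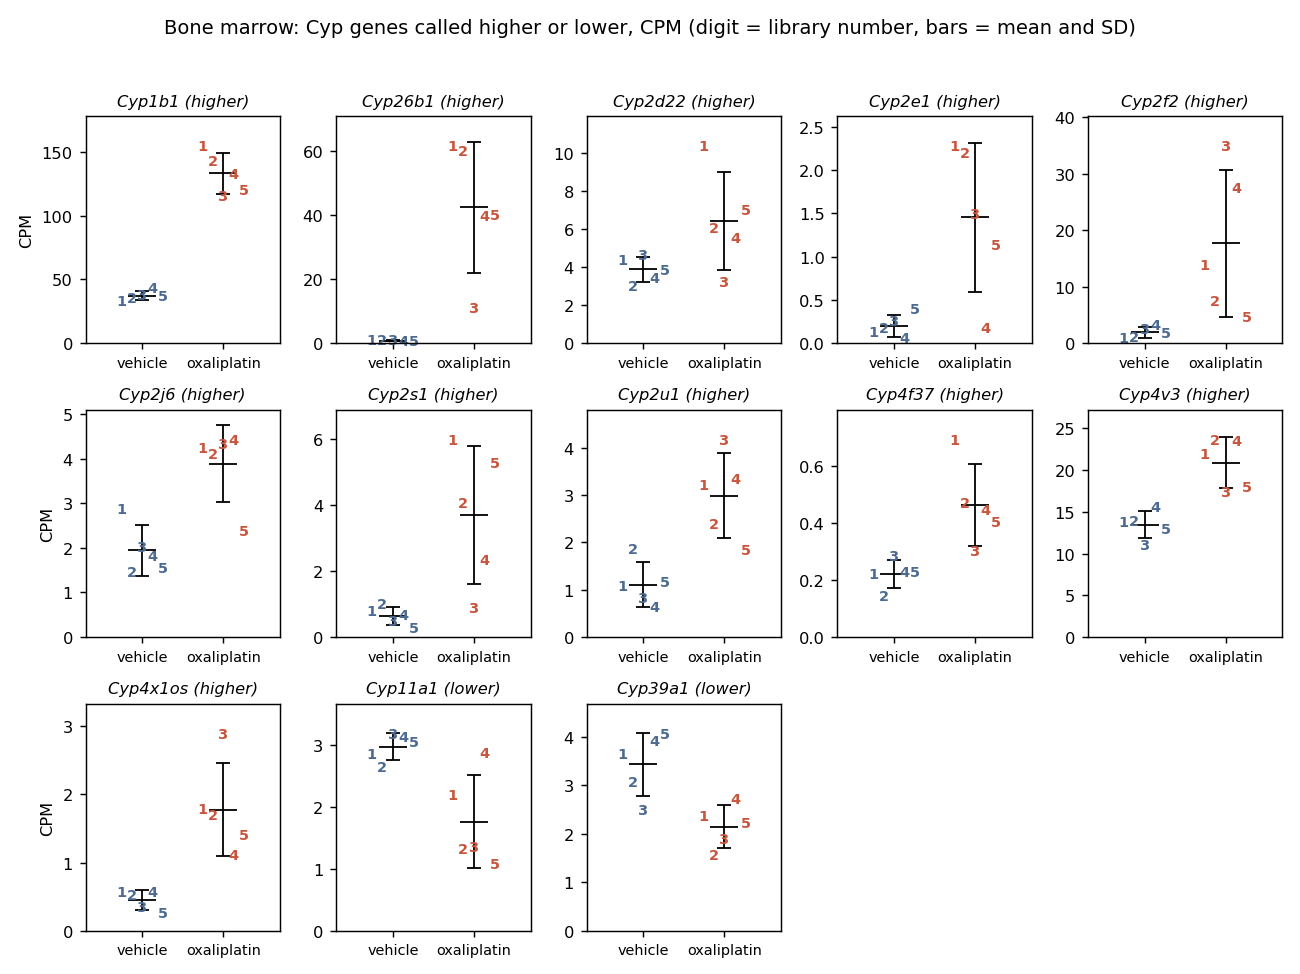
CPM of the 13 Cyp genes called in bone marrow, each with its own axis from 0. Digits mark library numbers within a group, and black bars are the mean and SD of 5 libraries. Cyp26b1 stood below 1 CPM in all vehicle libraries and between 11.1 and 61.6 CPM in the oxaliplatin libraries.

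The largest change was that of Cyp26b1, which inactivates retinoic acid. It had 0.855, 0.989, 0.977, 0.684 and 0.585 CPM with vehicle and 61.6, 60.1, 11.1, 39.7 and 40.1 CPM with oxaliplatin. Every oxaliplatin library was more than 10 times above the highest vehicle library, and library 3 was the lowest of them. The log2 fold change was 5.69 ± 0.46 (adjusted p = 3.79e-06). The related Cyp26a1 and Cyp26c1 were not called, the latter with 2.23 ± 0.472 CPM with vehicle and 1.81 ± 0.804 CPM with oxaliplatin.

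The region before the start of Cyp26b1, the gene with the largest change, is at chr6:84593811-84594060 of GRCm38.p6, minus strand (RefSeq). It was searched for AGGTCA, the half-site of retinoic acid receptors and their relatives, and for TATAA, the latter in capitals.
Cyp26b1: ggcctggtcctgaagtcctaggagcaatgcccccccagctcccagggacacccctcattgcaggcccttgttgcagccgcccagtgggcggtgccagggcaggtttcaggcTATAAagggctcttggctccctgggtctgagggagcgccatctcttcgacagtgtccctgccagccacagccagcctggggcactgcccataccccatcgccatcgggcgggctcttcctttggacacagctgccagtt
TATAA lies 139 bases before the start given by RefSeq. In the GENCODE annotation the gene reaches to chr6:84593908, inside this window. The letters AGGTCA are not in this window on either strand, nor in the other 5 printed here. They occurred in 14.0% of all windows and in 19 of the 84 windows of Cyp genes.

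Cyp1b1, the hydrocarbon and oestrogen hydroxylase of stromal cells, rose in marrow as in kidney. Its libraries had 33.4, 35.4, 37.9, 43.2 and 36.9 CPM with vehicle and 155, 143, 116, 133 and 120 CPM with oxaliplatin. The groups were widely apart with little spread (log2 fold change 1.83 ± 0.11, adjusted p = 1.26e-07). Cyp1a1 and Cyp1a2 had too few counts to be tested. The other Ahr targets went different ways, Aldh3a1 rising from 1.25 to 3.22 CPM, Nqo1 falling from 14.8 to 6.84 CPM and Tiparp not called.

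Of the 7 tested genes of the drug-metabolising Cyp2 subfamilies, 4 rose. Cyp2f2, which activates naphthalene in the lung, had 0.886, 1.16, 2.52, 3.16 and 1.85 CPM with vehicle and 13.8, 7.55, 34.9, 27.4 and 4.66 CPM with oxaliplatin. The groups did not overlap, and libraries 3 and 4 were highest (log2 fold change 3.20 ± 0.57, adjusted p = 0.00122). Plin1, the coat protein of fat droplets in adipocytes, had 168, 70.2, 210, 283 and 21.6 CPM in the same oxaliplatin libraries and at most 2.19 CPM with vehicle. All 4 adipocyte markers rose, and their sum ranged from 19.3 to 50.6 CPM with vehicle and from 250 to 1677 CPM with oxaliplatin. Their part in the Cyp genes was not tested.

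Cyp2s1 had 0.791, 0.989, 0.473, 0.656 and 0.260 CPM with vehicle and 5.96, 4.04, 0.862, 2.34 and 5.26 CPM with oxaliplatin. Library 3 lay in the vehicle range and the other 4 above it (log2 fold change 2.53 ± 0.49, adjusted p = 0.00148). Cyp2e1 was near the limit of detection at 0.127, 0.175, 0.252, 0.0570 and 0.390 CPM with vehicle and had 2.28, 2.19, 1.49, 0.178 and 1.13 CPM with oxaliplatin. Library 4 remained in the vehicle range, and the log2 fold change was 2.85 ± 0.63 (adjusted p = 0.00336). For comparison, 3 counts corresponded to between 0.0729 and 0.0978 CPM in the marrow libraries. Cyp2d22 had 3.88 ± 0.671 CPM with vehicle and 10.4, 6.05, 3.24, 5.52 and 6.98 CPM with oxaliplatin, with library 3 in the vehicle range. Its adjusted p of 0.0497 lay at the threshold, and the call was lost in 12 of 18 alternatives, among them leaving out any vehicle library or any oxaliplatin library but number 3.

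Of the 3 tested genes among the Cyp2j subfamily and Cyp2u1, 2 rose, at low levels. Cyp2j6 had 2.88, 1.45, 2.02, 1.82 and 1.56 CPM with vehicle and 4.23, 4.11, 4.33, 4.43 and 2.37 CPM with oxaliplatin. Oxaliplatin library 5 fell within the vehicle range, and the others lay above it (log2 fold change 1.00 ± 0.25, adjusted p = 0.00679). Cyp2u1, a hydroxylase of long fatty acids, had 1.08, 1.86, 0.819, 0.627 and 1.17 CPM with vehicle and 3.23, 2.38, 4.17, 3.34 and 1.83 CPM with oxaliplatin. There too library 5 overlapped with vehicle (log2 fold change 1.43 ± 0.32, adjusted p = 0.00359). Cyp2j9 had 1.34 ± 0.166 CPM with vehicle and 0.735 ± 0.373 CPM with oxaliplatin and was not called, although the groups did not overlap (adjusted p = 0.0797). Cyp2j5 and Cyp2j11, both abundant in kidney, had no count in any marrow library.

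Of the 8 tested genes of the Cyp4f, Cyp4v and Cyp4x subfamilies, 2 rose, Cyp4v3 and Cyp4f37. Cyp4v3, a fatty acid hydroxylase, had 13.8, 13.9, 11.1, 15.6 and 12.9 CPM with vehicle and 22.0, 23.6, 17.4, 23.5 and 17.9 CPM with oxaliplatin. The groups did not overlap (log2 fold change 0.63 ± 0.13, adjusted p = 0.00198), and without vehicle library 3 the change of 0.57 was just inside 1.5-fold. Cyp4x1os, an RNA from the strand opposite Cyp4x1, rose from 0.570, 0.524, 0.347, 0.570 and 0.260 CPM to 1.79, 1.69, 2.89, 1.11 and 1.40 CPM (log2 fold change 1.96 ± 0.33, adjusted p = 0.000556). Cyp4x1 itself had 1.11 ± 0.313 CPM with vehicle and 1.91 ± 0.597 CPM with oxaliplatin (adjusted p = 0.0544), and as the use of strand in counting is not stated, reads of the 2 genes where they overlap cannot be told apart. Cyp4f37 rose from 0.221 ± 0.0493 to 0.463 ± 0.143 CPM (log2 fold change 1.05 ± 0.37, adjusted p = 0.0451). With 5 to 9 counts per vehicle library, it had enough counts for a test only through its oxaliplatin libraries. The call was lost in 11 of 17 alternatives, leaving out any vehicle library or oxaliplatin library 1, 2 or 4 among them. Cyp4f16 (10.8 and 15.4 CPM) and Cyp4f17 (5.98 and 8.80 CPM, with no overlap) passed the adjusted p but not the fold threshold, as did the orphan Cyp20a1 (15.7 and 20.6 CPM).

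The most abundant member in marrow, Cyp4f18, had 54.1, 67.2, 65.7, 60.2 and 76.9 CPM with vehicle and 67.1, 57.3, 13.0, 33.0 and 93.3 CPM with oxaliplatin. The oxaliplatin libraries spread from far below to above the vehicle range, and no change was called (log2 fold change -0.30 ± 0.39, adjusted p = 0.609). The neutrophil granule gene Ltf, named after the values were seen, was also lowest in oxaliplatin libraries 3 and 4, at 842 and 1713 CPM against 2933 to 4800 CPM in the other 8. S100a8 had 1135 and 1164 CPM there against 1923 to 3102 CPM in the other 8. Neutrophil markers summed to between 13652 and 16735 CPM with vehicle and between 7945 and 19174 CPM with oxaliplatin, and none of the 5 was called. Their part in Cyp4f18 was not tested. Cyp51 behaved in the opposite way, with 18.2, 21.4, 20.6, 21.2 and 18.6 CPM under vehicle and 12.5, 13.3, 37.8, 29.1 and 14.6 CPM under oxaliplatin. It was highest in libraries 3 and 4 and below the vehicle range in the other 3, and its log2 fold change of 0.10 ± 0.28 (adjusted p = 0.820) turned to -0.20 without library 3. Cyp27a1 had 14.5 ± 1.01 CPM with vehicle and 19.8 ± 4.94 CPM with oxaliplatin, was lowest in library 3 (11.4 CPM) and was not called (adjusted p = 0.0616). Cyp4f13 had 17.3 ± 2.46 CPM with vehicle and 19.5 ± 8.92 CPM with oxaliplatin, from 8.39 CPM in library 3 to 31.2 CPM in library 5, and was not called. Without oxaliplatin library 3, 14 Cyp genes were called higher instead of 11.

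The 2 genes that fell in marrow did so modestly. Cyp39a1, an oxysterol hydroxylase, had 3.64, 3.06, 2.49, 3.90 and 4.06 CPM with vehicle and 2.36, 1.57, 1.89, 2.72 and 2.21 CPM with oxaliplatin. Only oxaliplatin library 4 reached into the vehicle range (log2 fold change -0.67 ± 0.22, adjusted p = 0.0283). Cyp11a1, the side-chain cleavage enzyme that starts steroid synthesis, had 2.85, 2.65, 3.18, 3.14 and 3.05 CPM with vehicle and 2.19, 1.32, 1.35, 2.87 and 1.08 CPM with oxaliplatin. Library 4 was again the one within the vehicle range, and the log2 fold change was -0.75 ± 0.27 (adjusted p = 0.0468). The call of Cyp11a1 was lost in 13 of 18 alternatives, among them leaving out any vehicle library or oxaliplatin library 2, 3 or 5. That of Cyp39a1 was lost in 7, among them leaving out vehicle library 1, 4 or 5 or oxaliplatin library 2. Cyp2t4, at 1.90 and 2.16 CPM, was not called.

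Markers of other marrow cells moved at the same time. All 4 erythroid and all 4 B cell markers fell, the former from a sum of 12775 to 22412 CPM with vehicle to between 1623 and 3697 CPM with oxaliplatin, the latter from 215 to 381 CPM to between 49.8 and 66.1 CPM. Of 5 macrophage markers 3 rose and of 4 endothelial markers 2 rose, while none of 4 markers of stroma and bone was called. Of 3 skeletal muscle markers 2 rose, Acta1 and Ckm, with sums of 0.989 to 73.6 CPM with vehicle and 30.0 to 577 CPM with oxaliplatin. Their part in the change of the Cyp genes was not tested. In the lists of related genes, 7 of 9 PPAR alpha targets rose in marrow and none fell, led by Pdk4 (1.77 to 17.9 CPM) and Angptl4 (10.6 to 63.3 CPM). Both epoxide hydrolases rose, Ephx1 from 17.6 to 55.7 CPM and Ephx2 from 2.97 to 11.2 CPM. Of 7 electron donors and redox partners 3 rose, Cyb5b, Fdx1 and Pgrmc1, and Por was not called (132 and 110 CPM). Of 8 SREBP2 targets 2 rose, Hmgcs1 and Idi1, of 7 tested receptors 1 rose, Rxra, and of 4 genes of haem supply and breakdown 1 fell, Blvrb. Ptgis rose as it did in kidney, from 2.74 to 4.76 CPM.

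The tissues were compared through the tissue by treatment interaction over all 20 libraries, in which 60 Cyp genes were tested and 14 responded differently, 23.3% against 30.1% of all genes tested. In 11 of the 14 the log2 fold change was greater in marrow and in 3 in kidney. All 3 of the latter had too few counts for a test in marrow alone. Only 26 Cyp genes had enough counts for testing in both tissues, and 9 of these 26 differed. The other 5, Cyp17a1, Cyp1a1, Cyp2a5, Cyp4a31 and Cyp7b1, were tested in kidney but had too few counts for a test in marrow. They entered this fit through their kidney counts. Over all genes, neither the share that differed among those tested in both tissues nor the split by direction was computed.

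Cyp2e1 was the 1 gene called in opposite directions, falling in kidney and rising in marrow, where its level was far lower (0.0927 RPKM against 712 RPKM in kidney, with vehicle). The difference in log2 fold change, kidney minus marrow, was -4.17 ± 0.65 (adjusted p = 5.70e-05). Cyp2b10 differed by -4.23 ± 0.75 (adjusted p = 0.000159), being lower in kidney and not called in marrow, where it had 0.891 ± 0.436 CPM with vehicle and 1.59 ± 0.515 CPM with oxaliplatin, and the difference was -5.27 without kidney oxaliplatin library 3. Cyp51, called lower in kidney and not called in marrow, differed by -1.33 ± 0.36 (adjusted p = 0.00721). For Cyp26b1 the difference was -4.13 ± 0.88 (adjusted p = 0.00151), the gene being called higher in marrow and not called in kidney. It was -3.35 without kidney vehicle library 5 and -4.95 without kidney oxaliplatin library 5.

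Genes that rose in both tissues still differed in size. Cyp1b1 differed by -1.08 ± 0.14 (adjusted p = 6.03e-06) and Cyp2s1 by -1.71 ± 0.48 (adjusted p = 0.00924), both with the greater rise in marrow. Cyp2d22 was called higher in both tissues, and its difference of 0.75 ± 0.30 did not pass (adjusted p = 0.0630). Cyp2f2 (-3.02 ± 0.60, adjusted p = 0.000658), Cyp2j6 (-1.01 ± 0.24, adjusted p = 0.00242) and Cyp2u1 (-1.36 ± 0.31, adjusted p = 0.00167) rose in marrow and were not called in kidney, where Cyp2f2 had 3.90 ± 0.554 CPM with vehicle and 4.69 ± 0.715 CPM with oxaliplatin. Of the genes called in either tissue, 4 were called in both, 3 of them higher in both and Cyp2e1 in opposite directions.

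**Figure D5:**
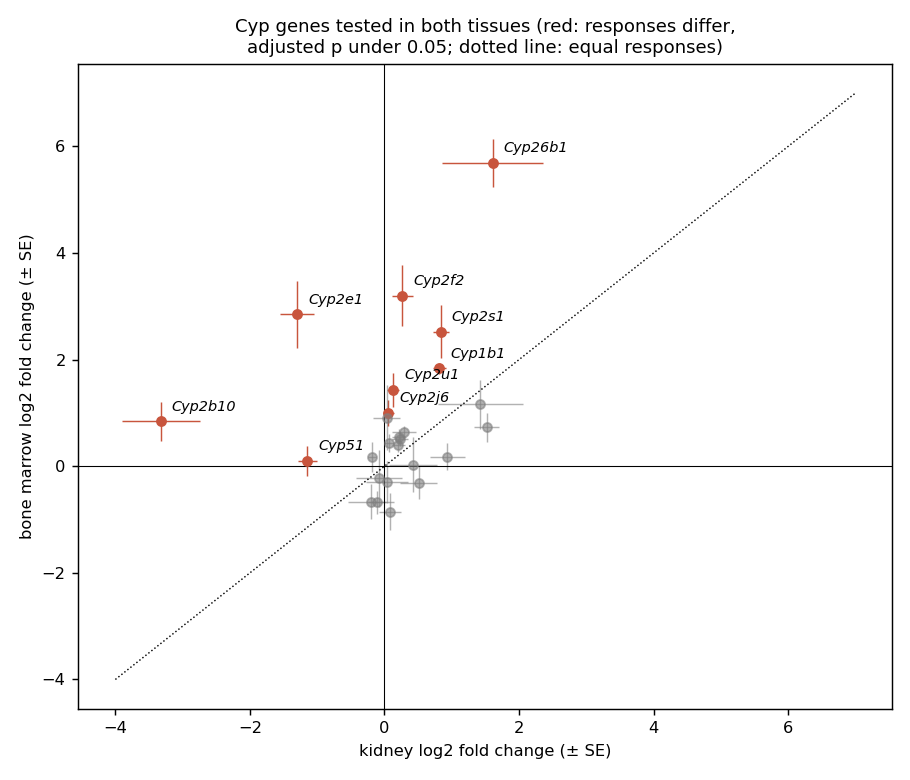
Log2 fold change with oxaliplatin in kidney (horizontal) and bone marrow (vertical), with SE bars, for the 26 Cyp genes tested in both tissues. Red points are the 9 genes whose responses differed by the interaction test, grey points the others, and the dotted line marks equal responses. All 9 lie above the line, Cyp2e1 at -1.30 in kidney and 2.85 in marrow. The share of all genes above the line was not computed.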

How the data were processed

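Total RNA from kidney and bone marrow was sequenced, and the authors deposited raw read counts per gene, 1 table for each tissue, unnormalised and with replicates kept apart. Per the processing notes, featureCounts 2.0.3, Salmon 1.5.2 and STAR 2.7.9a were used, whereas the methods, which describe the marrow libraries, name another STAR release together with the annotation of Ensembl release 101. Whether counting used strand is not given in the sources used here. Library chemistry is described in more than 1 way, as removal of ribosomal RNA or as SMARTer, which could change counts of short or unspliced RNAs.

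Of 55774 lines, those repeating a gene ID with the same counts, and 1 that lacked a value, were set aside, which left 55486 genes. Counts were filtered with filterByExpr (minimum count 10), scaled by TMM and compared in each tissue, oxaliplatin against vehicle, by a two-sided quasi-likelihood test (edgeR 4.0.16 with limma 3.58.1, run in R 4.3.3) with Benjamini-Hochberg adjustment over all genes tested. A call required an adjusted p under 0.05 and a change beyond 1.5-fold. The tissue by treatment interaction was fitted over all 20 libraries with the same adjusted p and no fold threshold. RPKM used exon lengths of GENCODE M21 (GRCm38), and positions are from that annotation. Promoter windows came from a RefSeq table of GRCm38.p6, in which 75 of the 97 genes matched. For Cyp2e1, Cyp2d9, Cyp2d26, Cyp1a1 and Cyp26b1 the RefSeq start lies inside the gene as GENCODE places it. The steps were tested on simulated data.

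Median totals were 26548769 and 27362564 counts for vehicle and oxaliplatin kidney and 33563067 and 35895243 for marrow, and 3 counts were taken as the limit that a count of 0 allows, for counting error only. The labels call libraries of a group biological replicates, and no 2 libraries of a group were alike within sampling noise. Genes were named where they were called in a tissue, were among the 10 highest by RPKM in vehicle mice, or differed in the interaction with both tissues tested. Other Cyp genes named beside them, and the urothelial genes and Ltf, were chosen after their values were seen. List genes named in a tissue without a call there also fell outside this rule, and their values had been seen. Among them were Hbb-bs, Alb, Lrp2, Slc34a1 and Star in kidney and S100a8 in marrow. The members and lists were chosen with earlier results of these data known.

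Alternatives were DESeq2 1.42.0, other size factors, other filters and fold thresholds, a Y-linked covariate, leaving out hemoglobin genes in marrow, the replicate number as a block and leaving out each library. Results for the 4 symbols left out of the family, and for some single genes of the lists, are not reported here.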

Additional observations from a re-analysis of the deposited data

Results flagged for a closer look

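Single libraries stood far from the other 4 of their group in 9 of 114 groups examined (7.89%), where chance gives about 1 in 20. In kidney, Cyp1a1 reached 4.18 CPM in oxaliplatin library 4 against 0.863 to 1.26 CPM in the other 4. Cyp26b1 reached 15.8 CPM in vehicle library 5 against 2.50 to 4.28 CPM and 48.6 CPM in oxaliplatin library 5 against 6.49 to 14.6 CPM. Vehicle library 3 was far the lowest of its group for Cyp2d9 (274 against 337 to 355 CPM), Cyp2j11 (144 against 156 to 161 CPM) and Cyp4a10 (122 against 229 to 268 CPM). Cyp4f16 was highest in vehicle library 2, at 7.28 CPM against 5.71 to 6.05 CPM. In marrow, Cyp26c1 had 3.06 CPM in vehicle library 3 against 1.95 to 2.18 CPM, and Cyp2j6 had 2.37 CPM in oxaliplatin library 5 against 4.11 to 4.43 CPM.

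The response differed between kidney and marrow by the interaction test for 9 Cyp genes tested in both tissues. As kidney minus marrow log2 fold changes, the differences were -1.08 for Cyp1b1, -4.13 for Cyp26b1, -4.23 for Cyp2b10, -4.17 for Cyp2e1 and -3.02 for Cyp2f2. They were -1.01 for Cyp2j6, -1.71 for Cyp2s1, -1.36 for Cyp2u1 and -1.33 for Cyp51.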

How the results depend on the processing

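Of 1335 values recomputed under other settings, 1229 were classed as the same. For a fold change this meant the same direction and side of the threshold, and for a count of Cyp genes a ratio to the main count of at most 1.5. At the same fold threshold, 12 of 15 calls in kidney and 8 of 13 in marrow held under every other normalisation, filter, covariate, block and left-out library in which the gene was tested. With at least 10 counts in every library Cyp17a1 and Cyp2b10 in kidney and Cyp2e1, Cyp2s1, Cyp4f37 and Cyp4x1os in marrow were not tested. The other calls were lost in at least 1 of these settings: Cyp1a1, Cyp2d9 and Cyp4a12a in kidney and Cyp11a1, Cyp2d22, Cyp39a1, Cyp4f37 and Cyp4v3 in marrow. Testing against a change of 1.5-fold, which is stricter by construction, left 3 Cyp genes higher and 2 lower in kidney and 7 higher and 0 lower in marrow, and 454 and 2730 genes of all kinds. A fold beyond 2 left 0 lower Cyp genes in marrow. In either direction it left 11 Cyp genes in kidney and 9 in marrow, and 941 and 3231 genes of all kinds. No fold threshold gave 11 lower Cyp genes in kidney, and in either direction 20 Cyp genes and 5679 genes of all kinds there. The lower count in marrow was 1 with RLE size factors, without a filter or without hemoglobin genes, and 0 with library size alone or the Y-linked covariate. At least 10 counts in every library, which tests fewer genes, left 7 higher Cyp genes in marrow and 9 in the interaction. Leaving out 1 library gave 8 to 10 higher and 5 to 7 lower Cyp genes in kidney, 8 (without vehicle library 3) to 14 (without oxaliplatin library 3) higher and 0 (without vehicle library 1, 4 or 5) to 3 (without oxaliplatin library 4) lower in marrow, and 12 to 17 in the interaction.

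Some genes that were not called changed sign, and the cause was not tested. In kidney, library size alone gave 0.025 for Cyp39a1 and 0.092 for Cyp4a31, and Cyp4f18 was at -0.0038 with the replicate block and -0.0011 with the Y-linked covariate. Leaving out 1 library, Cyp4f18 ranged from -0.11 to 0.18 and Cyp4a31 from -0.13 to 0.021. In marrow, Cyp51 was at -0.047 with the block and from -0.20 to 0.27 without 1 library. Cyp2t4 (-0.016) and Cyp4f13 (-0.30) were below 0 with the Y-linked covariate, and Cyp4f13 ranged from -0.034 to 0.36 without 1 library.

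Libraries with the same number did not deviate together (correlations of -0.154 to 0.0754 in kidney and -0.118 to 0.228 in marrow), and 1 pair in each tissue correlated best with its own number. With the replicate number as a block, 14 Cyp genes were called in kidney, 12 in marrow and 13 in the interaction. Depth limits the genes left untested, which held at most 20 counts in any kidney library and 34 in any marrow library.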
